A study of Mus musculus with 6 samples.

Results

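Hormone, secretory granule and endocrine transcription factor genes were followed in tuft cells of the mouse thymus, epithelial cells with a chemosensory program, which had been sorted as L1CAM-positive. The list of 34 genes was fixed by name and holds 15 peptide hormone or neuropeptide genes, 2 genes of amine synthesis, 8 of secretory granules and prohormone processing, 2 of vesicle fusion, 6 transcription factor genes and Car8. Each of the 34 was matched once among the 55471 genes of the expression table, and 29 reached a mean normalized count of at least 10 over the 6 libraries and were tested. All mice were Ikzf1 fl/fl: both alleles of Ikzf1 were floxed. The gene encodes Ikaros, a zinc finger transcription factor. In 3 samples Foxn1-Cre, a recombinase made in thymic epithelium, was absent (given as WT) and in 3 it was present (given as KO). Foxn1-Cre acts throughout thymic epithelium, so cells other than tuft cells also carried it. Ages and sexes were not given in the sources used here, nor was it stated whether each library came from 1 animal or from a pool.

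The table has 3 columns called Het and 3 called Ko, numbered 1 to 3 and given below in that order. Ko was taken as the group with Foxn1-Cre, and Het, a word the labels lack, was left as the group without it; no column can be tied to 1 sample. The targeted gene went against a loss of its RNA. Ikzf1 (ENSMUSG00000018654) stood at 301, 187 and 273 normalized counts in Het1 to Het3 and at 1572, 1463 and 1717 in Ko1 to Ko3, a log2 difference of 2.66 ± 0.30 (SE; adjusted p in limma = 0.0105, 3.35e-14 to 0.0621 over the alternatives, above 0.05 without Het3). Directions below therefore refer to the labels of the libraries. Tuft cell RNA was abundant in all 6 libraries: the summed level of 16 tuft cell markers was between 144202 and 201868 normalized counts for Het and between 204086 and 267394 for Ko. L1cam, the gene of the sorting marker, stood at 2745 ± 331 (SD, n = 3) in the Het and 3670.1 ± 687 in the Ko libraries. A pair of libraries stood apart in single genes of other cells: Het1 held the macrophage gene Lyz2 at 53300, against 497 to 8729 elsewhere, and Ko2 the fibroblast gene Dcn at 9169, against 651 to 2107. Other macrophage and dendritic cell markers did not follow Lyz2: of 12 with Lyz2 included, only Lyz2 was highest in Het1. The mean log2 level of the 8 tested markers, Lyz2 included, was 6.38 in Het1, 6.86 in Het2 and 6.26 in Het3. That of fibroblast and endothelial markers was highest in Ko2, at 8.11, against 4.68 to 6.79 elsewhere. Recovered reads per library ran from 12238428 to 31435787, and 3 reads corresponded to a normalized count between 1.68 in Het1 and 4.33 in Het3.

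Enteroendocrine and neuroendocrine cells store peptide hormones in dense-core granules. Prohormones are cut by convertases and trimmed by carboxypeptidase E, granins such as chromogranin A help to form the granule, and SNARE proteins release its content. Neurogenin 3, NeuroD1, Insm1, Isl1, Nkx2-2 and Pax6 specify these cells in gut and pancreas. In the thymic medulla, some epithelial cells take on programs of peripheral tissues, endocrine ones among them, and express tissue antigens to developing T cells.

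Of the 29 tested genes, Gip and Car8 fell in the libraries labelled Ko and 0 rose (limma, adjusted p under 0.05). Over all 19416 genes tested, 0.525% were called lower and 0.288% higher. The count of lower genes was 1 with a pseudocount of 0.5 (0.448% of all genes), 1 with a block by column number (0.319%), 4 without the filter on low values (0.258%) and 4 with array weights (0.633%). It was 1 without Het1 (0.306%), Ko2 (0.236%) or Ko3 (0.211%) and 0 without Het2 (0.0262%), Het3 (0%) or Ko1 (0.484%). At an unadjusted p under 0.05, 9 of the 29 were lower and 3 higher (Sct, Scg5 and Isl1), against 7.99% and 5.62% of all genes tested. DESeq2 called 9 lower (Gip, Gcg, Nts, Gal, Grp, Calcb, Tph1, Chgb and Car8) and 2 higher (Sct and Scg5; 4.24% and 2.1% of the genes it adjusted), while edgeR and voom called 0 of the 29 (0.386% and 0.206% of all genes, in either direction). DESeq2 gave no adjusted p for Cck, Sst, Calca and Ins2, so it could not call them. The 23 negative and 6 positive fold changes had a median of -2.86 on the log2(value + 1) scale, against -0.05 for all genes tested, of which 52.8% were negative. These figures describe the 29 that passed the filter on low values and are no support for a change of the list: 8 of them, Gip among them, had a mean under 10 in the libraries labelled Ko and passed through the Het libraries, and 0 passed the other way.

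**Figure D1:**
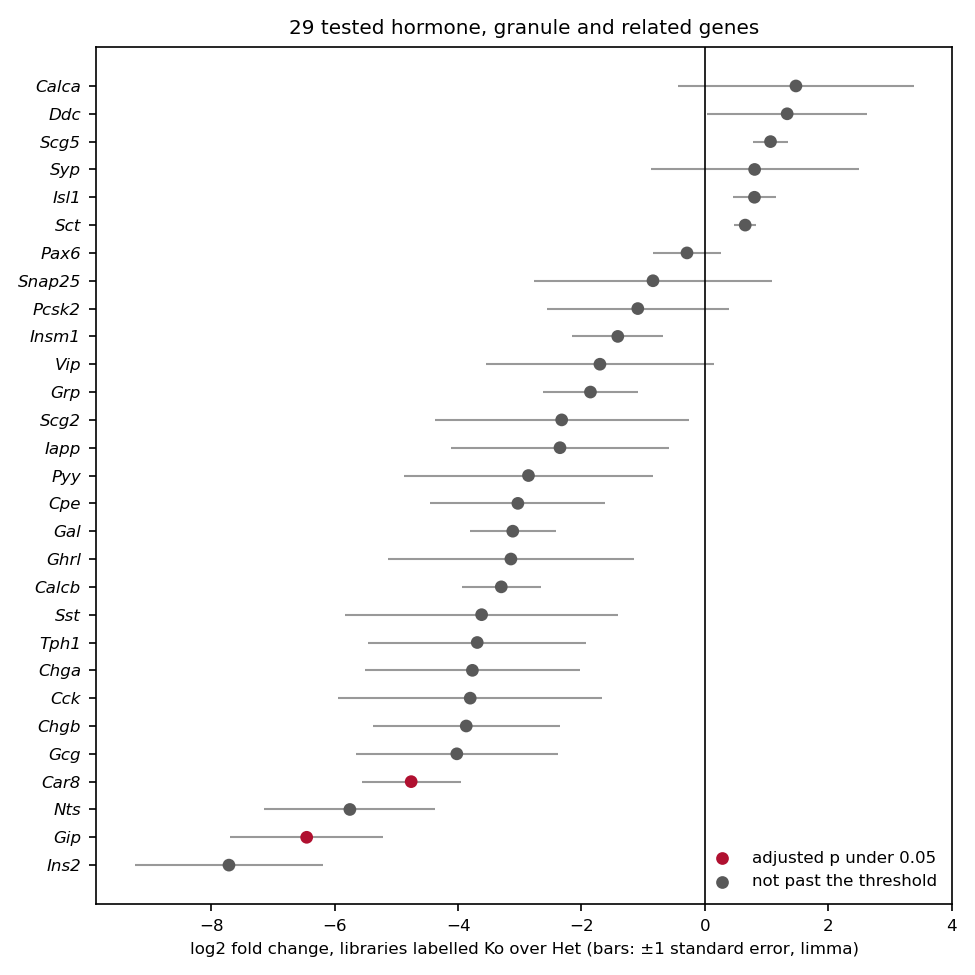
Log2 fold change of the 29 tested genes (x axis, libraries labelled Ko over Het, on log2(normalized count + 1)), with 1 standard error from limma as bars, 3 libraries per group. Gip and Car8, in red, were the genes with an adjusted p under 0.05; Sct, Scg5 and Isl1 lay right of 0 with short bars, while Calca, Ddc and Syp had bars that reach close to or across 0.

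Upstream sequences of 3 hormone genes are shown, chosen after their values were seen, because their groups did not overlap: Gip fell to 1 read in the libraries labelled Ko, Gal stood lower in each of them, and Sct stood higher in each. They are the 250 bases before the start site in RefSeq on GRCm38.p6 (the authors' build was GRCm39), 5′ to 3′ on the gene's strand: chr11:96024295-96024544 on the plus strand for Gip, chr19:3414545-3414794 on the minus strand for Gal and chr7:141279134-141279383 on the minus strand for Sct. Capitals mark the E-box CANNTG, the site type read by helix-loop-helix factors such as NeuroD1, and TGGGAA or its reverse complement TTCCCA, a core read by Ikaros.
Gip: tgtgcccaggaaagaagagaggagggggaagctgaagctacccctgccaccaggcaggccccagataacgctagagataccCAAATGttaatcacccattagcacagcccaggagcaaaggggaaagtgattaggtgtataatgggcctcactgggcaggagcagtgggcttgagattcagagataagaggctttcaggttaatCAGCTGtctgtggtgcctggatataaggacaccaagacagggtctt
Gal: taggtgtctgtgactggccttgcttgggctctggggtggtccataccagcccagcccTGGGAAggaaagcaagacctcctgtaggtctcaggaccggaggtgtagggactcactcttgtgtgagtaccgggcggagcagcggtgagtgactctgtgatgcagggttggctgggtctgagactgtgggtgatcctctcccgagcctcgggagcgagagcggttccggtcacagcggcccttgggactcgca
Sct: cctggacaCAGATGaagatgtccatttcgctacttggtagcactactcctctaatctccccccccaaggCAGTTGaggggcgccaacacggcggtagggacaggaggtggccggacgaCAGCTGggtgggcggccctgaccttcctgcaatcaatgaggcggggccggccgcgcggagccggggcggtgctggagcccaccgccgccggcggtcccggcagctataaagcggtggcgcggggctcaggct
The Gip window held 2 E-boxes and the Sct window 3, and Gal held 1 TGGGAA core and 0 E-boxes. Such letters are common. CANNTG was found in 66.2% of 32851 windows of this length and in 22 of 34 counted windows, from 27 genes of the list. TGGGAA on either strand was found in 21.6% and in 6 of the 34. A filter by chromosome was applied to the windows of the list and not to the 32851. The narrower E-box CAGATG on either strand was found in 14.4% of all windows and in 5 of the 34, Sct among them. A match is a description of the letters and not a site.

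Gip (ENSMUSG00000014351) encodes glucose-dependent insulinotropic polypeptide, an incretin of the upper gut. It stood at 92.8, 144 and 119.8 normalized counts in Het1 to Het3 and at 0, 0 and 1.43 in Ko1 to Ko3. All Het libraries held the gene at a like level (119 ± 25.7, SD, n = 3), and the libraries labelled Ko held 1 read in all. The difference on the log2 scale was -6.46 ± 1.24 (SE; adjusted p = 0.0493 in limma), a value just inside the threshold, and the depth-scaled ratio of reads, Het over Ko, was 306 with an exact 95% interval of 54.7 to 12122 that covers counting error only. The call was lost in 11 of 16 alternatives, among them each of the 6 that left out 1 library (adjusted p over the alternatives 3.12e-05 to 0.221). Fewer cells of a type and less RNA per cell cannot be told apart in these bulk samples, for Gip and for every gene below.

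Car8 (ENSMUSG00000041261) encodes a carbonic anhydrase-related protein without the enzyme's activity, known as a partner of the inositol trisphosphate receptor. It stood at 572, 1424 and 944 in Het1 to Het3 and at 43.2, 90.1 and 8.59 in Ko1 to Ko3. The lowest Het library was above the highest Ko library by a wide margin. The log2 fold change was -4.76 ± 0.80 (limma, adjusted p = 0.0341). The call did not hold with edgeR (0.0728), voom (0.204) and without Het1 (0.0625), Het2 (0.166), Het3 (0.184) or Ko1 (0.0548), over alternatives from 1.28e-09 to 0.204. Of 15 other genes of the carbonic anhydrase family, 11 were tested and 0 were called by limma, with 2 at an unadjusted p under 0.05, 1 lower in DESeq2 and 0 in edgeR and voom. Over all genes tested, 13.6% had an unadjusted p under 0.05 in either direction, and DESeq2 called 4.24% lower and 2.1% higher, shares against which the counts of this and the further lists below stand. Car12 had the smallest p, at 1163 ± 345 in the Het and 322 ± 201 in the Ko libraries (adjusted p in limma = 0.105), followed by Car13, at 254 ± 122 and 64.5 ± 109 (0.253; SD, n = 3 each).

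The hormone genes differed in how evenly the libraries held them. Sct (ENSMUSG00000038580), encoding secretin, which drives bicarbonate secretion, was the steadiest. It stood at 2930.4, 2591 and 3653 in Het1 to Het3 and at 4622, 5114 and 4579 in Ko1 to Ko3. Its groups did not overlap, with the libraries labelled Ko higher by a log2 difference of 0.65 ± 0.18. Sct was not called, as its adjusted p was above the threshold (0.134 in limma, and 0.0268, in DESeq2, to 0.358 over the alternatives). Its within-group SD of log2 values, 0.188, had 5.95% of the genes tested below it. Sct made up 10.1% to 20.6% of the summed level of the 34 genes in the Het and 30.5% to 54.6% in the Ko libraries.

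Gal, encoding the neuropeptide galanin, was also read in every library. It stood at 382, 1384 and 2122 in Het1 to Het3 and at 167, 196 and 51.6 in Ko1 to Ko3. The groups did not overlap, and the log2 fold change was -3.11 ± 0.69 (limma adjusted p = 0.0804). Calcb, the gene of the second calcitonin gene-related peptide, had the same order of groups, at 772, 994 and 4101 in the Het and 182, 233 and 75.9 in the Ko libraries. Its log2 fold change of -3.30 ± 0.64 missed the threshold by little (limma adjusted p = 0.0504; 3.54e-08 to 0.339 over the alternatives), and 5 of 16 alternatives called it. Its close relative Calca, which gives calcitonin and the first such peptide, was ordered otherwise. Calca stood at 3.91, 92.3 and 2775 in Het1 to Het3 and at 1597, 199.9 and 84.5 in Ko1 to Ko3. High values thus stood in 1 library of each group, and the sign of its log2 fold change, 1.48 ± 1.91, turned with the setting. The deposited counting could split reads between Calca and Calcb, so their separate levels are uncertain.

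Grp, encoding gastrin-releasing peptide, stood at 233, 479.9 and 2213 in the Het and 159, 343 and 94.5 in the Ko libraries. Its groups overlapped, and the log2 fold change was -1.85 ± 0.78. Grp was not called by limma (adjusted p = 0.333, and 0.0192, in DESeq2, to 0.666 over the alternatives). Nts, encoding neurotensin, reached 11295 in Het3, against 884 and 173 in Het1 and Het2 and 31.9, 62.2 and 4.30 in Ko1 to Ko3. The groups did not overlap, but Het3 alone held 90.7% of the summed value, and the log2 fold change was -5.76 ± 1.39 (limma adjusted p = 0.101).

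**Figure D2:**
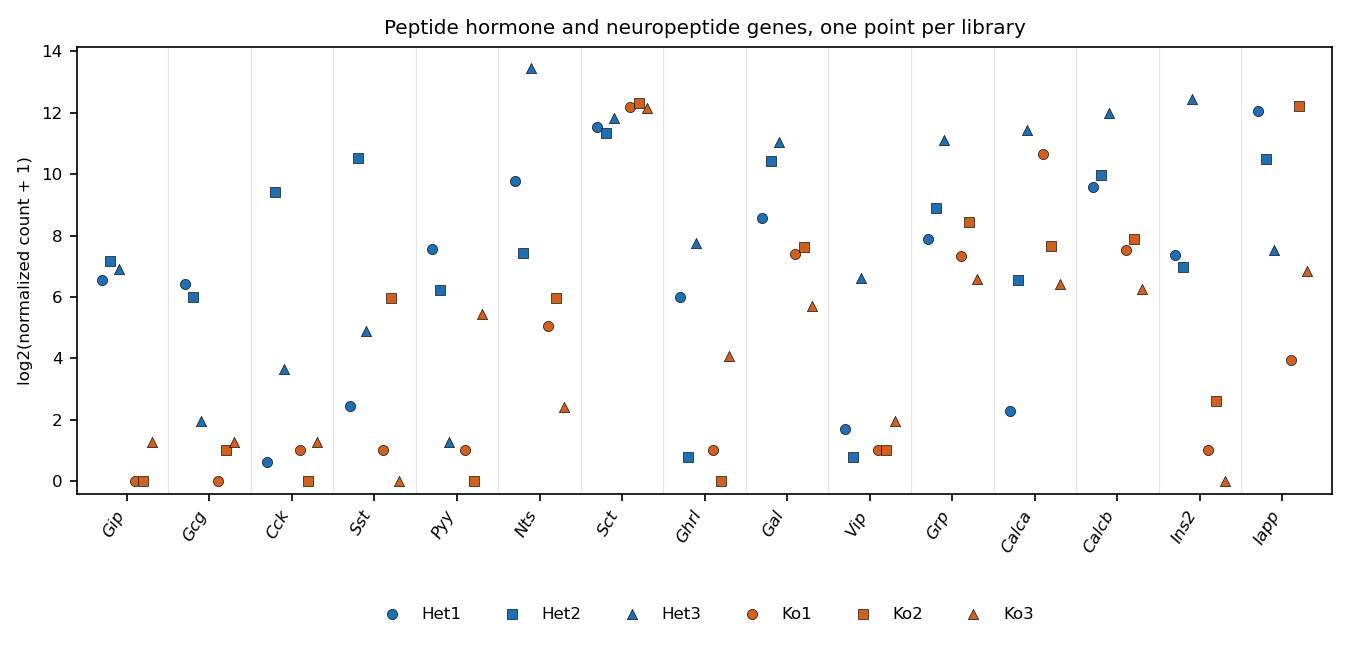
Level of the 15 hormone and neuropeptide genes (y axis, log2(normalized count + 1)), 1 point per library, with Het libraries in blue and Ko libraries in orange. Sct lies in a narrow band in all 6 libraries and Gip splits the groups without overlap, whereas Cck and Sst peak in Het2 and Nts, Ins2 and Vip in Het3.

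Ins2, encoding insulin, is a classic tissue antigen of the thymic medulla. It stood at 163, 126 and 5616 in Het1 to Het3 and at 1.03, 5.18 and 0 in Ko1 to Ko3, on 4360 reads in the Het and 6 in the Ko libraries. The groups did not overlap even apart from Het3, which held 95% of the summed value. The log2 fold change was -7.72 ± 1.53 (limma adjusted p = 0.0537; 0.0381 to 0.636 over the alternatives that gave one), and the authors' deposited table leaves its adjusted p blank. Ins1, its close copy, had 14 reads in the Het and 3 in the Ko libraries, and reads may be shared between the copies. Iapp, encoding amylin, which beta cells release with insulin, did not follow Ins2. It stood at 4203, 1445 and 185 in Het1 to Het3 and at 14.4, 4799 and 115 in Ko1 to Ko3, lowest among Het libraries in Het3, where Ins2 was highest. Its log2 fold change was -2.35 ± 1.77 (limma adjusted p = 0.620).

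The other gut hormone genes were read mainly in the Het libraries, and Cck, Sst and Vip mainly in a single Het library. Cck, encoding cholecystokinin, had 687 normalized counts in Het2, 11.5 in Het3 and at most 1.43 in any other library. Sst, encoding somatostatin, had 1454 in Het2, 28.9 in Het3, 4.47 in Het1 and 1.03, 62.2 and 0 in Ko1 to Ko3. Both peaks stood in the same library, with 97.9% and 93.8% of the summed values in Het2. Gcg, encoding proglucagon, had 85.0, 62.5 and 2.89 in the Het and 0, 1.04 and 1.43 in the Ko libraries. Its groups did not overlap, but Het3 held only 2 reads, so that the order there is within counting error (ratio of reads 82.0, exact 95% interval 22.5 to 681). Pyy, encoding peptide YY, had 187, 73.1 and 1.44 in the Het and 1.03, 0 and 43.0 in the Ko libraries. Gcg and Pyy, which enteroendocrine L cells make together, were both highest in Het1 and next in Het2. Ghrl, encoding ghrelin, had 62.6, 0.71 and 215 in the Het and 1.03, 0 and 15.8 in the Ko libraries, and Vip, encoding vasoactive intestinal peptide, had 98.1 in Het3 and 0.71 to 2.86 elsewhere. None of these 6 passed the test (limma, adjusted p 0.318 to 0.750).

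Tph1, encoding the rate-limiting enzyme of serotonin synthesis in gut endocrine cells, stood at 1.68, 102 and 196 in Het1 to Het3 and at 4.12, 1.04 and 1.43 in Ko1 to Ko3. Het1 lay among the Ko libraries, so the groups overlapped (limma adjusted p = 0.402). Ddc, encoding the decarboxylase that acts after it, did not share this pattern, at 437, 6.39 and 166 in the Het and 143, 462 and 129 in the Ko libraries (0.717). Of 11 further genes of amine handling, 10 were tested and 0 were called by limma (2 at an unadjusted p under 0.05; DESeq2 1 lower; edgeR and voom 0). Those with the smallest p were Hdc, the histamine-forming enzyme, at 1448 ± 1003 and 149 ± 141 (limma adjusted p = 0.112), and Slc6a4, the serotonin transporter, at 197 ± 100.4 and 22.1 ± 32.0 (0.172; Het and Ko libraries, SD, n = 3 each).

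Among granule genes, Scg5 was the steady one. It encodes 7B2, the chaperone of the convertase PC2, and stood at 1002, 1766 and 1085 in Het1 to Het3 and at 2175, 3566 and 2269 in Ko1 to Ko3. The groups did not overlap, with the libraries labelled Ko higher by a log2 difference of 1.06 ± 0.28. Scg5 was not called by limma (adjusted p = 0.131, and 0.0119, in DESeq2, to 0.340 over the alternatives). Pcsk2, encoding PC2 itself, was far lower and irregular, at 11.2, 4.97 and 60.6 in the Het and 21.6, 2.07 and 5.73 in the Ko libraries (limma adjusted p = 0.809). Pcsk1, encoding the convertase PC1/3, had 6 reads in the Het and 13 in the Ko libraries and was not tested. Cpe, encoding carboxypeptidase E, stood at 267, 295 and 153 in the Het and 187, 1.04 and 57.3 in the Ko libraries. Ko1 lay within the Het range of Cpe, and Ko2 held 1 read (limma adjusted p = 0.390).

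Of the granins, Chga and Scg2 split by library in place of group. Chga, encoding chromogranin A, stood at 260.0, 68.2 and 189 in Het1 to Het3 and at 1.03, 273 and 1.43 in Ko1 to Ko3. Scg2, encoding secretogranin 2, stood at 78.3, 129.9 and 4.33 in the Het and 0, 181 and 1.43 in the Ko libraries. Both were highest of all libraries in Ko2 and nearly unread in Ko1 and Ko3 (limma adjusted p = 0.383 and 0.687). Chgb, encoding chromogranin B, was low in Ko2 too, at 446, 864 and 21.6 in the Het and 30.9, 35.2 and 1.43 in the Ko libraries (log2 fold change -3.87 ± 1.52, limma adjusted p = 0.303), with Het3 inside the Ko range. The adjusted p of Chgb over the alternatives ran from 0.00148, in DESeq2, to 0.588. Scg3 had 18 reads in the Het and 1 in the Ko libraries and was not tested. The summed level of the 8 granule and processing genes overlapped between the groups, at 1518 to 3141 in the Het and 2341 to 4066 in the Ko libraries, and Scg5 was its largest part in each library.

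Snap25 and Syp, of the vesicle fusion machinery of neurons and endocrine cells, showed no common order. Snap25 stood at 185, 1.42 and 26 in Het1 to Het3 and at 6.17, 120.2 and 1.43 in Ko1 to Ko3, and Syp, encoding synaptophysin, at 0.559, 78.1 and 20.2 in the Het and 72.0, 35.2 and 4.30 in the Ko libraries (adjusted p in limma = 0.896 and 0.886). Of 31 further granule and exocytosis genes, 27 were tested and 0 were called by limma, with 8 at an unadjusted p under 0.05 (13.6% of all genes), 6 lower and 1 higher in DESeq2 (4.24% and 2.1%) and 0 in edgeR and voom. Of the 27, 8 had Ko libraries below all Het libraries against 1 above (9.86% and 8.57% of all genes tested). The median log2 fold change of the 27 was -0.59, against -0.05 for all genes tested. Genes such as Pcsk1n, with 0 reads in the Ko libraries, passed the filter on low values through the Het libraries. The median is therefore no support for a change of this list. Slc18a1, a vesicular monoamine transporter, stood at 351 ± 203 in the Het and 32.4 ± 22.2 in the Ko libraries (adjusted p in limma = 0.110), and Syt7, a calcium sensor of granule release, at 95.3 ± 28.5 and 4.74 ± 1.70 (0.124; SD, n = 3 each).

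**Figure D3:**
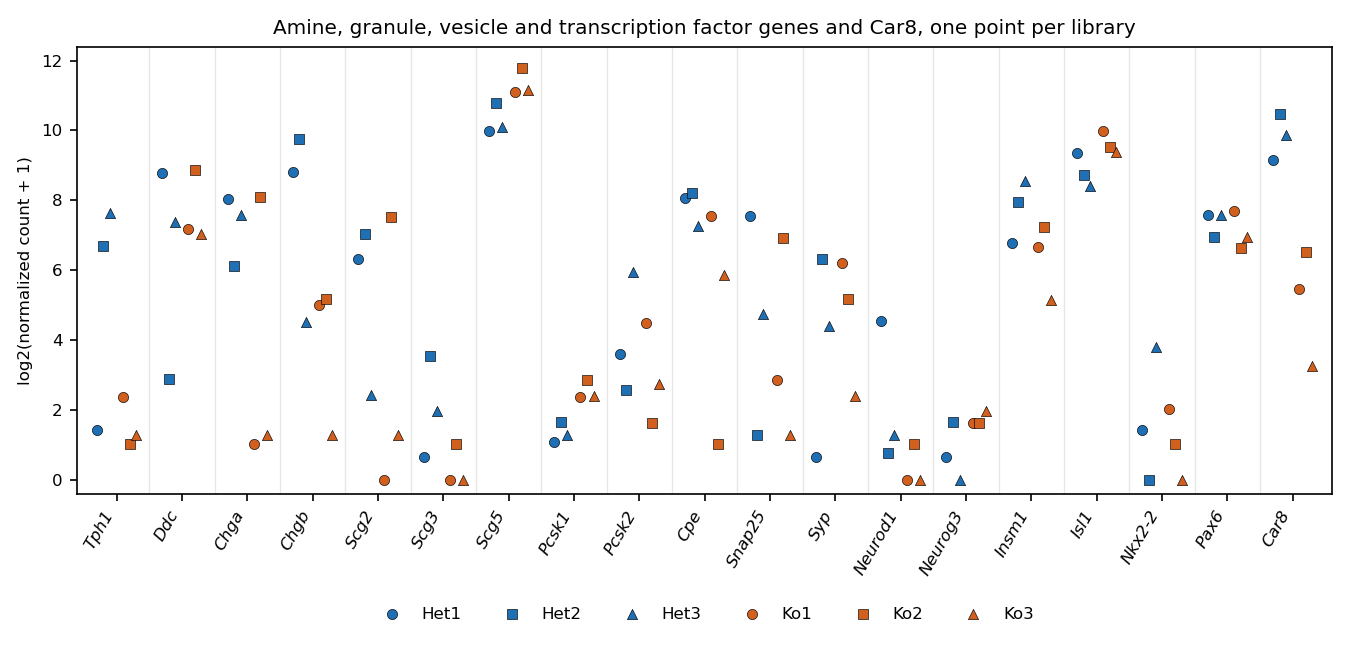
Level of the amine, granule, vesicle fusion and transcription factor genes and of Car8 (y axis, log2(normalized count + 1)), 1 point per library, with Het libraries in blue and Ko libraries in orange. Scg5, Isl1 and Pax6 stay within narrow bands, Chga and Scg2 are high in Ko2 and near 0 in Ko1 and Ko3, and Car8 separates the groups.

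The transcription factor genes were of 2 kinds. Insm1, Isl1 and Pax6 were read in all libraries, whereas Neurog3, Neurod1 and Nkx2-2 had 10, 43 and 16 reads over all 6 libraries and were not tested. Isl1, a LIM homeobox gene, stood at 648, 422 and 341 in Het1 to Het3 and at 1011, 738 and 666 in Ko1 to Ko3. Its groups did not overlap, with the libraries labelled Ko higher by a log2 difference of 0.80 ± 0.34, but Isl1 was not called (adjusted p in limma = 0.339). Insm1, a zinc finger gene of endocrine differentiation, stood at 109, 246 and 377 in the Het and 101, 150.2 and 34.4 in the Ko libraries (0.451), and Pax6 at 191, 124 and 189 and 205, 97.4 and 122 (0.875). Both overlapped between the groups. Of the 43 reads of Neurod1, 40 were in Het1. Neurog3 had at most 3 reads in any library, so its presence could not be judged at this depth.

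Further endocrine transcription factors numbered 31, of which 20 were tested and 0 called by limma, with a median log2 fold change of -0.19. At an unadjusted p under 0.05 there were 4, and DESeq2 called 1 lower. In this list and the next 3, edgeR and voom called 0, and medians stand against -0.05 for all genes tested. Several tested genes of the next 3 lists, such as Gast, Gipr and Ffar3, had a mean under 10 in the Ko libraries. They passed the filter on low values through the Het libraries, while Npff of the peptide list passed the other way. The medians of those 3 lists are therefore no support for a change of a list. Etv1 stood at 735 ± 221 in the Het and 237 ± 10.1 in the Ko libraries (adjusted p in limma = 0.0880) and Runx1t1 at 213 ± 163 and 491 ± 94.6 (0.294; SD, n = 3 each). Among 25 further peptide genes, 14 were tested and 0 called by limma (median -2.12; 2 at an unadjusted p under 0.05, DESeq2 1 lower). Pomc, encoding pro-opiomelanocortin, stood at 993 ± 760.5 and 148 ± 71.6 (limma adjusted p = 0.135) and Nppc, encoding C-type natriuretic peptide, at 189 ± 85.9 and 45.8 ± 45.6 (0.359). Ppy, encoding pancreatic polypeptide, was read only in Het2, at 80.9, the library that also held the peaks of Cck and Sst. Of 32 genes for receptors of the listed hormones and their partners, 11 were tested and 0 called by limma (median -1.18; 2 at an unadjusted p under 0.05, DESeq2 1 lower). Ramp1, a partner of the receptor for calcitonin gene-related peptide, stood at 546 ± 215 and 156 ± 43.9 (0.131), and Sort1, a neurotensin-binding sorting receptor, at 2420.2 ± 828 and 3434 ± 125 (0.345). Of 13 nutrient receptor and sensing genes of enteroendocrine cells, 10 were tested and 0 called by limma (median -1.04; 2 at an unadjusted p under 0.05, DESeq2 2 lower). The short-chain fatty acid receptor gene Ffar3 stood at 53.9 ± 26.5 and 1.64 ± 1.48 (0.171), and the glucose transporter gene Slc5a1 at 72.1 ± 78.0 and 1.64 ± 1.48 (0.270).

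What most of the 29 tested genes shared was a large spread between libraries of 1 group. Their median within-group SD of log2 values was 2.36, against 0.774 for all genes tested, and 2.39 against 0.542 among genes with a mean of at least 50, of which the list held 24. In 15 of the 29, 1 library held over 50% of the summed value, against 18.3% of all genes tested. In 5 (Cck, Ins2, Sst, Vip and Nts), 1 library held over 90%, against 2.72%. These 5 peaks stood in Het2 for Cck and Sst and in Het3 for Ins2, Vip and Nts. The highest library was a Het library for 21 of the 29, and for 52.3% of all genes tested: Het3 for 11 (17.8%), Het2 for 7 (18.7%), Het1 for 3 (15.8%), Ko2 for 6 (16.1%), Ko1 for 2 (15.8%) and Ko3 for 0 (15.8%). As 8 of the 29 passed the filter on low values through the Het libraries, these counts are no support for a change of the list.

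**Figure D4:**
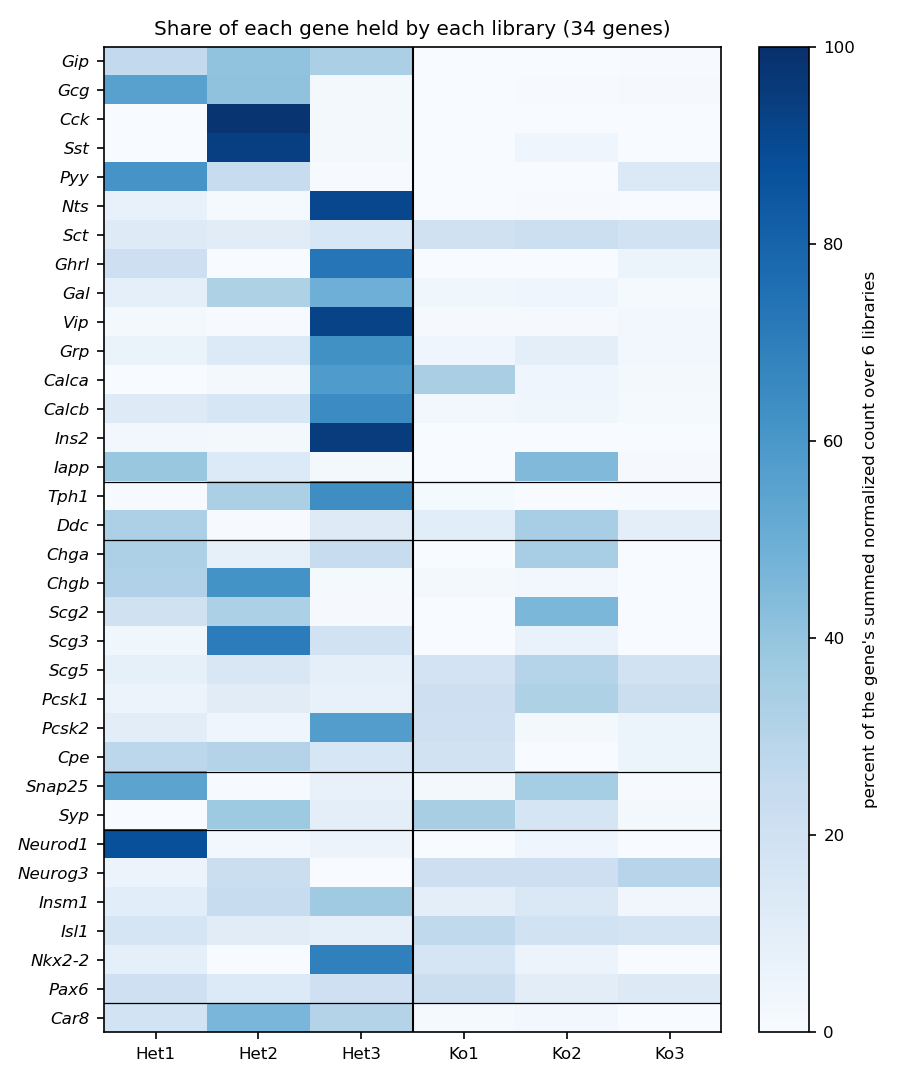
Share of each gene's summed normalized count held by each library (columns, colour from 0 to 100%), for all 34 genes (rows) ordered by role, with lines between roles. Single dark cells mark Cck and Sst in Het2, Nts, Vip and Ins2 in Het3 and Neurod1 in Het1, which had few reads; Sct, Scg5, Isl1 and Pax6 are spread over all 6 columns.

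Groups did not overlap for 10 of the 29 (18.4% of all genes tested), with Ko libraries lower for 7 (Gip, Gcg, Nts, Gal, Calcb, Ins2 and Car8; 9.86% of all genes tested) and higher for 3 (Sct, Scg5 and Isl1; 8.57%). The mean log2 level of the 29 was 6.77, 7.2 and 7.60 in Het1 to Het3 and 4.75, 5.51 and 4.21 in Ko1 to Ko3. This mean leaves out genes that failed the filter on low values, and 8 of the 29 passed it through the Het libraries. Of the 7 lower genes, Gip, Gcg and Ins2 were among these 8. Neither the mean nor the count of 7 is therefore support for a change of the list. Summed levels of the 34, where abundant genes weigh more, overlapped between the groups, at 14239 to 36227 in the Het and 8381 to 16780.3 in the Ko libraries. In the authors' deposited table, 8 of the 25 genes with an adjusted p were given as lower (Gip, Gcg, Nts, Gal, Calcb, Tph1, Chgb and Car8) and 2 as higher (Sct and Scg5) at adjusted p under 0.05, against 5.16% and 3.03% of all genes with one.

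Markers of other cells are given here beside these levels. Secretory and microfold markers, 10 of 10 tested, summed to 145589 to 207727 in the Het and 13786 to 37553 in the Ko libraries. Aire-stage medullary markers, 10 of 10 tested, summed to 11460.0 to 49271 and 7571 to 8941, with Aire at 147, 1536 and 1656 in Het1 to Het3 and at 52.5, 441 and 96.0 in Ko1 to Ko3. Macrophage and dendritic cell markers, 8 of 12 tested, summed to 4638 to 53763 and 1226 to 3104, also lower in each library labelled Ko. Ciliated markers, 8 of 8 tested, summed to 2929 to 10286.9 and 2942 to 3673, and keratinocyte-like markers, 8 of 8 tested, to 12162 to 21764 and 10578 to 25849. The mean log2 level of the ciliated list was 7.51 to 9.70 and 5.05 to 6.22, and that of the keratinocyte-like list 8.88 to 9.55 and 6.29 to 8.07, both lower in each library labelled Ko. Neuron and Schwann cell markers, 11 of 14 tested, overlapped in summed level at 1514 to 2065 and 1309 to 1974, while their mean log2 level was 5.10 to 5.74 and 4.42 to 4.66. Fibroblast and endothelial markers, 10 of 10 tested, summed to 1371 to 2101 and 1122 to 11817, highest in Ko2. Of the 34 genes of the hormone and granule list, 7 were highest in that library: Sct, Iapp, Ddc, Chga, Scg2, Scg5 and Pcsk1. Acinar and islet markers, 4 of 10 tested, summed to 189 to 324 and 674 to 852, and of the 10, Amy2a1 had 0 reads in all libraries. That order of sums was not shared by the list. Of the 4 tested, 2 had a negative and 2 a positive fold change, and their mean log2 level overlapped, at 3.14 to 5.06 and 4.22 to 5.18. Cortical, thymocyte and B cell markers, 8 of 8, 7 of 12 and 6 of 8 tested, summed to 16948 to 42738, 147 to 619 and 2506 to 3632 in Het libraries and 20017 to 25802, 587 to 1289 and 5077 to 6404 in the Ko ones. Limma called 5 secretory and microfold markers and 1 ciliated marker lower (0.525% of all genes), and 1 tuft cell, 1 B cell and 1 acinar or islet marker higher (0.288%). The part of these cells in the levels of the hormone and granule genes was not tested.

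**Figure D5:**
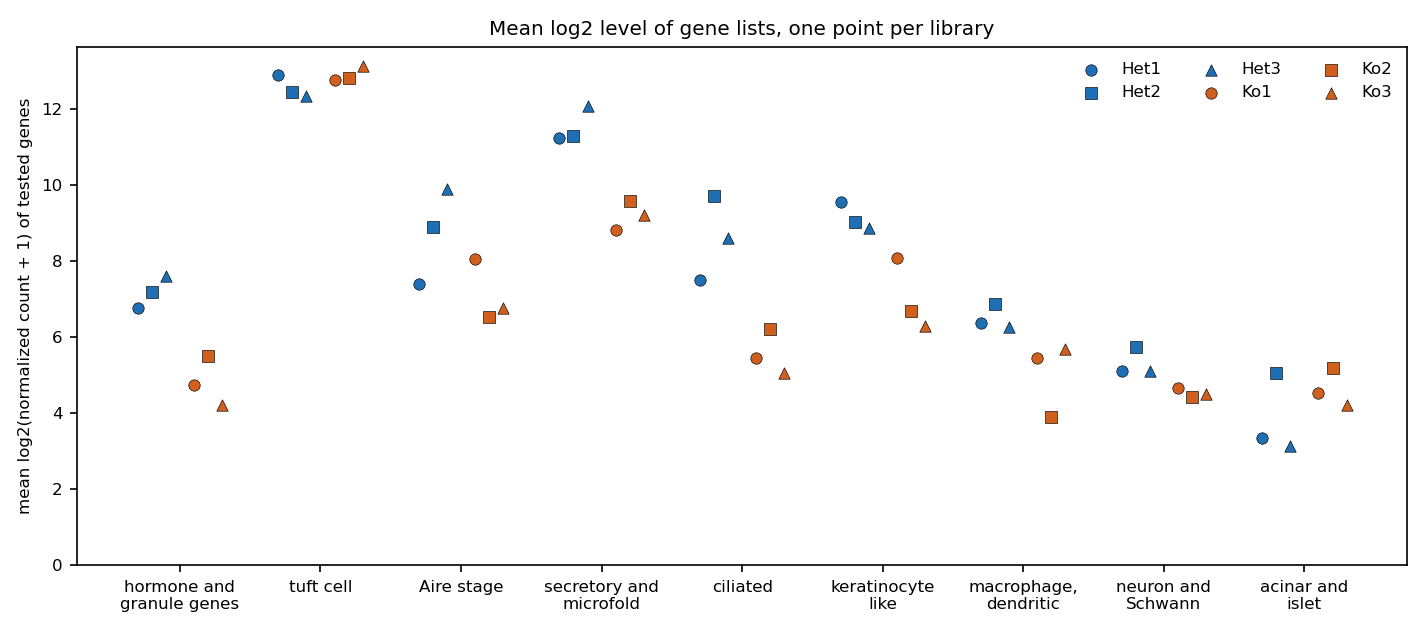
Mean log2(normalized count + 1) of the tested genes of the hormone and granule list and of 8 lists of cell type markers (x axis), 1 point per library, with Het libraries in blue and Ko libraries in orange. The hormone and granule list and the secretory and microfold, ciliated, keratinocyte-like, macrophage and dendritic cell and neuron and Schwann lists lie lower in each library labelled Ko, while the tuft cell, Aire-stage and acinar and islet lists overlap. Only tested genes enter, and 8 of the hormone and granule list passed the filter on low values through the Het libraries.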

How the data were processed

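RNA was sequenced from L1CAM-sorted thymic tuft cells collected in a SMART-seq lysis buffer (source: the labels' protocols), 3 samples per genotype. STAR 2.7.9a, DESeq2 and the build GRCm39 were used by the authors, per the submitters' processing notes. Read counter, annotation and strandedness: not given in the sources used here, so antisense reads cannot be told apart. The authors' deposited expression table is a signal, namely normalized gene counts with 1 divisor for each library. Their deposited comparison gives for each gene, per the file headers, the log2 fold change, the Wald score and the p-value, raw and adjusted. Its blanks were kept.

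The members and lists were chosen with earlier results of these data known. Of 55471 identifiers, 55144 had a symbol in the name table supplied. Values divided by a column's smallest positive value were whole reads, within 0.01, for 100% of values above 0. Replicate pairs differed beyond sampling noise (chi-square per degree of freedom 51.7 to 121). Limma 3.58.1 (R 4.3.3) was run on log2(value + 1) of the genes with a mean of 10 or more (mean-variance trend, two-sided, Benjamini-Hochberg adjusted at 0.05), checked on simulated data. Log2 fold changes understate low genes. With 3 against 3, an exact permutation test cannot go below 0.1. Nothing states that libraries came from separate animals, so p-values reflect only how these samples scatter, which may be technical. Alternatives were other pseudocounts and filters, TMM, array weights, a block by column number, leaving out each library, and edgeR 4.0.16, DESeq2 1.42.0 and voom on recovered reads. Beyond the members, genes of the further lists were named if called, or else as the 2 with the smallest p of a list, with Ikzf1 and L1cam as checks. Called markers of cell types were counted and not named. Markers and genes named in comparison with a member, such as Ins1 and Ppy, were chosen after their values were seen.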

Additional observations from a re-analysis of the deposited data

How the results depend on the processing

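The number of the 29 tested genes called lower, 2 with limma (0.525% of all genes), was 1 with a pseudocount of 0.5 (0.448%), 4 without a filter on low values (of 34 genes; 0.258%) and 4 with array weights (0.633%). It was 9 with DESeq2 (4.24%), which gave no adjusted p for Cck, Sst, Calca and Ins2, and 0 with edgeR and voom (0.386% and 0.206%, in either direction). With 1 library left out it was 0 without Het2 (0.0262%), Het3 (0%) or Ko1 (0.484%), and 1 without Het1 (0.306%), Ko2 (0.236%) or Ko3 (0.211%). The number called higher was 0 with limma (0.288% of all genes) and 2 with DESeq2 (2.1%), and stayed 0 elsewhere. The median log2 fold change ran from -3.12 (pseudocount of 0.5) to -2.09 (no filter), and from -2.60 to -2.29 without 1 library. With limma on all genes, leaving out Het3 left 0 calls (0% of 19087 genes). Column numbers did not pair the libraries: deviations of same-numbered libraries correlated at 0.025, 0.0214 and -0.0153. With the replicate block by column number, 1 gene was called lower, Car8, and 0 higher. Single genes changed sign only where the main value was not called: Calca (1.48) was at -0.56 with edgeR and ran from -0.75 without Het1 to 3.82 without Het3 among fits that left out 1 library, Ddc (1.33) from -0.40 without Het2 to 2.55 without Het1, Snap25 (-0.84) from -2.46 without Het2 to 0.67 without Het1 (0.36 without Ko3), and Syp (0.81) from -0.76 without Het1 to 2.07 without Het2. Among values of single genes under alternatives that gave an adjusted p, 413 kept direction and side of the threshold, 16 became called, 17 lost a call and 6 changed sign; the causes were not tested. At 3 reads, values of 1.68 to 4.33 normalized counts, depth limits Scg3, Pcsk1, Neurog3 and Nkx2-2.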
